A study of Homo sapiens with 9 samples.

Results

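The 49 genes described here encode proteins that the liver secretes into blood plasma, and were taken by gene symbol out of the 20379 genes listed: 10 carrier proteins, 9 apolipoproteins, 13 coagulation genes, 12 protease inhibitors and precursors, and 5 complement genes. RNA with poly(A) tails was sequenced from HCCLM3, an established human hepatocellular carcinoma line, after transfection of siRNA against UXS1, of siRNA against MRPL42, or of a non-targeting control siRNA. UXS1 makes UDP-xylose, the sugar donor that starts glycosaminoglycan chains, and MRPL42 is a protein of the mitochondrial ribosome. Each group had 3 libraries, called a, b and c after the column names, all from this single cell line. Library totals lay between 15265959 and 22400560 estimated counts. The labels do not tie the libraries to separate cultures: p-values reflect only how much these libraries vary, and part of that may be technical.

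Hepatocytes make most plasma proteins. Their genes are switched on by transcription factors such as HNF1, HNF4A, FOXA and the C/EBP family, and a subset, the acute phase genes, responds to interleukin 6. Fibrinogen, the clot protein, is built from the products of the neighbouring genes FGA, FGB and FGG, and hepatocellular carcinoma lines keep such genes on to very different degrees.

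Of the 9 libraries, control library c differed most, so the comparisons with control siRNA are given with and without it. On the 30 tested plasma protein genes, the mean log2 level relative to the 9 libraries was -1.19 in control library c, and between 0.02 and 0.26 in the other 8. The common biological coefficient of variation over all genes was 0.130 over all 9 libraries, and 0.0755 once control library c was left out. Neither siRNA target passed the test. UXS1 had 145, 138 and 141 CPM (counts scaled to a common TMM-adjusted library total) in UXS1 siRNA libraries, against 144, 151 and 180 CPM in control siRNA libraries, a log2 fold change of -0.17 (edgeR quasi-likelihood test, adjusted p = 0.348), and of -0.08 without control library c (adjusted p = 0.517). MRPL42 had 104, 93.0 and 81.8 CPM in MRPL42 siRNA libraries, against 100, 118 and 147 CPM in control siRNA libraries, a log2 fold change of -0.39 (edgeR, adjusted p = 0.185), and of -0.23 without control library c (adjusted p = 0.263). For both targets the groups overlapped, so a group name here states which siRNA was given, and no loss of its target was measured.

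The promoters below show what lies in front of the 3 fibrinogen genes, which were low together in control library c, and of C4BPA and C5, complement genes that hold the same HNF1 motif as FGA. They are RefSeq windows on GRCh38.p14, from 250 bases before to 50 bases after the gene start, in which 38 of the 49 genes were matched; C3, APOC3, APOA1, SERPINC1, ITIH2, ORM2, SERPINF2, TTR, APOB, HP and SERPING1 were not. The windows are chr4:154562730-154563029 on the plus strand for FGB, chr4:154590693-154590992 on the minus strand for FGA, chr4:154612607-154612906 on the minus strand for FGG, chr1:207103983-207104282 on the plus strand for C4BPA, and chr9:121050226-121050525 on the minus strand for C5. FGB and C5 each have 2 windows in the table, and the one nearest to the annotated gene start is printed. Capitals mark matches, on either strand, to GTTAAT, any base, then ATT (HNF1), to TTGCNNAA (C/EBP), or to CTGGGAA (interleukin 6 response element).
FGB: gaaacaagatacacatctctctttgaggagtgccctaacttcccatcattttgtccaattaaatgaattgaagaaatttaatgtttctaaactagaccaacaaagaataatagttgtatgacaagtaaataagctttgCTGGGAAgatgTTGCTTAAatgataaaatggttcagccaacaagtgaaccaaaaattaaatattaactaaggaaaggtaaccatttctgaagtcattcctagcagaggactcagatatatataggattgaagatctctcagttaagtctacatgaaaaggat
FGA: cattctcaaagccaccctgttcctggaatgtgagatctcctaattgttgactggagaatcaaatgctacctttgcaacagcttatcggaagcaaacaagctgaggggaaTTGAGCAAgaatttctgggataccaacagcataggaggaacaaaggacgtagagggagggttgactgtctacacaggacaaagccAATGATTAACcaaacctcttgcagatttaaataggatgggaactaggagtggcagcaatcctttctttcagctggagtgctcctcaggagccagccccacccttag
FGG: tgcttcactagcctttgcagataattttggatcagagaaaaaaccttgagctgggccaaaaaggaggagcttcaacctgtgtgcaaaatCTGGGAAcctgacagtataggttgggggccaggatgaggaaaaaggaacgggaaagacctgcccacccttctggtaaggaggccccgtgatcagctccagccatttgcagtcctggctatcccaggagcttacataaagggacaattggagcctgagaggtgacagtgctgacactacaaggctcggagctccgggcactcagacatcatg
C4BPA: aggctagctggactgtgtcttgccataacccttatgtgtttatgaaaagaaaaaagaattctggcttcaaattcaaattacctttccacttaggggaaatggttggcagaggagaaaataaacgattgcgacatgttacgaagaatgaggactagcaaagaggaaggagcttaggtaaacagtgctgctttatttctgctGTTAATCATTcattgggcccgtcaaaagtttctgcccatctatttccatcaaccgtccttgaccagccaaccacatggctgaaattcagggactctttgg
C5: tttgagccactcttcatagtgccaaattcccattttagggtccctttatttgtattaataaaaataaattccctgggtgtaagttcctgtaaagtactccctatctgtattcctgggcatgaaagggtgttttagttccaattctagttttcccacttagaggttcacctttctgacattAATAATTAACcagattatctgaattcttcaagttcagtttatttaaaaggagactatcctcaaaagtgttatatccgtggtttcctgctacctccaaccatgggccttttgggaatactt
No printed matches overlapped one another. FGB held an interleukin 6 response element at base 139 and a C/EBP match at base 150, counted from the 5′ end of the window. FGA held a C/EBP match at base 110 and an HNF1 match at base 195, and FGG held an interleukin 6 response element at base 90. Among the 38 matched genes, the HNF1 letters were in 4 (FGA, PLG, C5 and C4BPA), beside 0.322% of the 35116 promoters in the table. The C/EBP letters were in 10 of the 38, beside 10.5% of all promoters, and the interleukin 6 letters in 11, beside 10.8%. For all these letters a gene was counted if any of its windows matched, and some genes, FGB and C5 among them, have further windows. The percentages count single windows, so the counts of genes are not directly comparable with them. A match is a description of the letters in the window and not a measured binding site.

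HCCLM3 cells kept part of the plasma protein transcripts. In TPM (a level per transcript length, computed here from the counts and scaled to the same total in each library), 21 of the 49 genes reached 1 TPM in all 9 libraries, 28 did in at least 1 library, and 21 stayed under 1 TPM throughout. A median of 10 TPM or more was found for 14 genes. F9, ITIH1 and ITIH3 had no count in any library; F9 is the clotting factor missing in haemophilia B. The filter on low counts passed 30 of the 49 genes, so 19 were not tested. Over all genes it passed 12646 of 20379. How many of all genes reached 1 TPM was not counted. By role, at least 1 TPM in all 9 libraries was reached by 6 of 10 carrier protein genes, 3 of 9 apolipoprotein genes, 4 of 13 coagulation genes, 5 of 12 protease inhibitor and precursor genes and 3 of 5 complement genes.

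**Figure D1:**
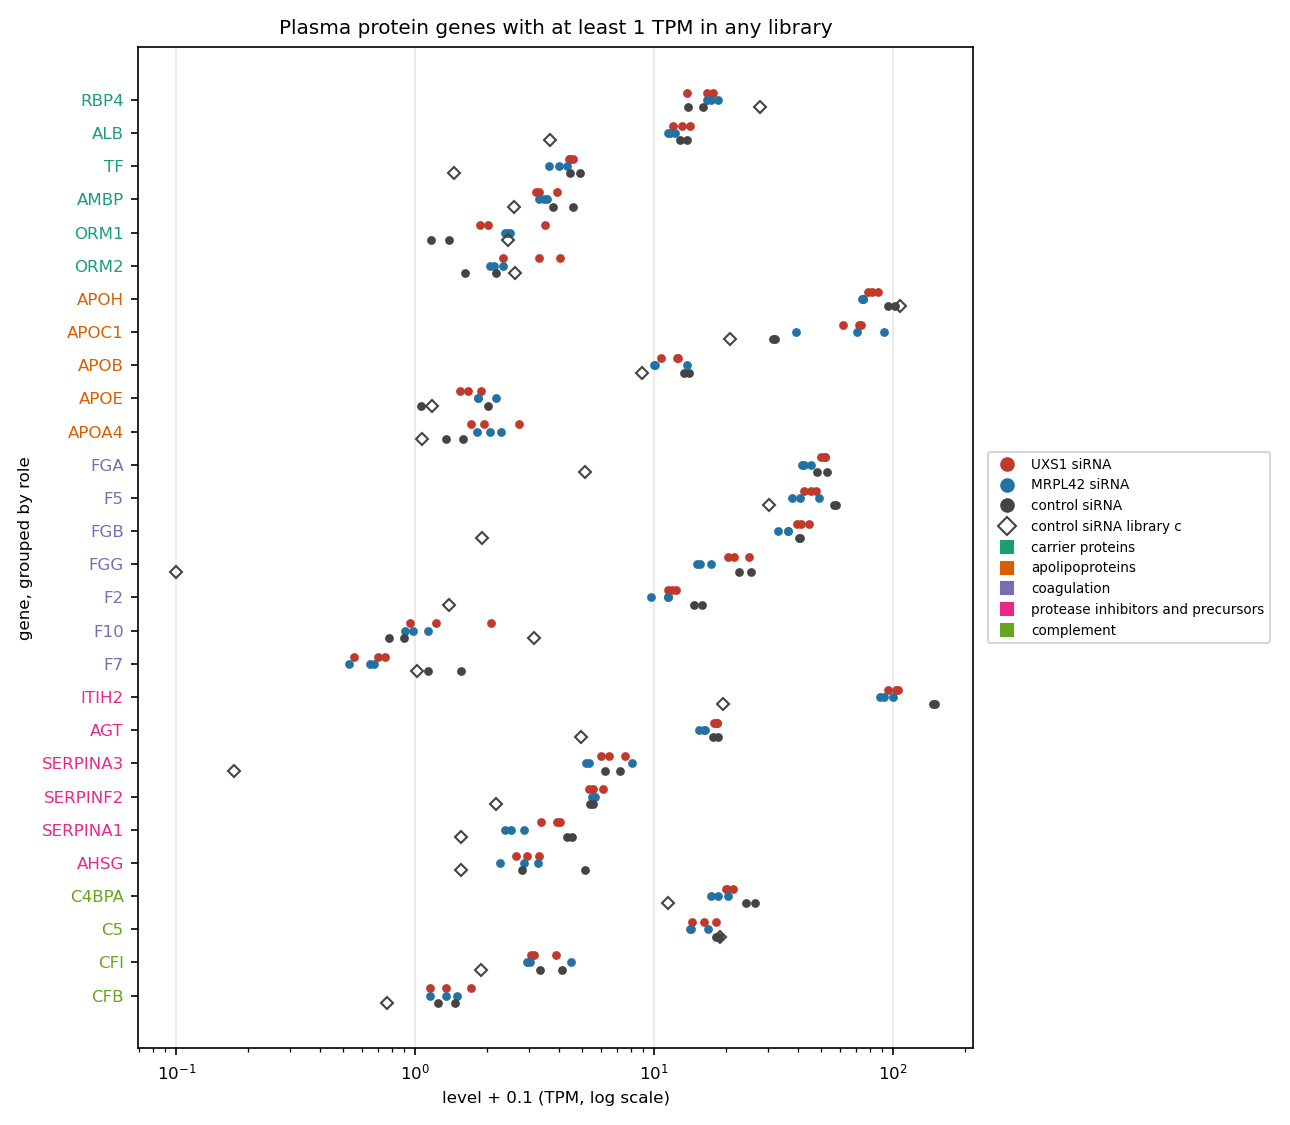
Level of each of the 28 genes with at least 1 TPM in any library, on a log axis of TPM + 0.1, with 1 point per library, coloured by siRNA; gene names are coloured by role. Control library c (open diamonds) lies far left of the other points for FGG, SERPINA3, FGB and F2, and right of them for F10 and RBP4.

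The highest levels were not those of the classical abundant plasma proteins. ITIH2, a heavy chain that is joined to hyaluronan in the extracellular matrix, had the highest median, with 103, 95 and 105 TPM in UXS1 siRNA libraries, 88.4, 100.4 and 92.1 TPM in MRPL42 siRNA libraries, and 147, 149.8 and 19.3 TPM in control siRNA libraries. Both siRNA groups lay below control libraries a and b, and above control library c. The gene lies at chr10:7703269-7749520 on the plus strand (GRCh38, GENCODE 29).

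Among carrier proteins, RBP4, the retinol carrier, was highest, with 16.5, 17.5 and 13.7 TPM in UXS1 siRNA libraries, 18.5, 17.2 and 16.5 TPM in MRPL42 siRNA libraries, and 15.9, 13.8 and 27.7 TPM in control siRNA libraries. Control library c was the highest of the 9, and the 3 MRPL42 siRNA libraries lay above control libraries a and b, while the UXS1 siRNA libraries overlapped them. ALB, albumin, the most abundant protein of plasma, had 13, 11.9 and 14.1 TPM in UXS1 siRNA libraries, 11.6, 12.1 and 11.4 TPM in MRPL42 siRNA libraries, and 12.7, 13.6 and 3.57 TPM in control siRNA libraries. The groups overlapped, with control library c lowest. TF, the iron carrier transferrin, is given in CPM, since its annotated transcript of 20602 bases leaves its level per length uncertain. It had 41.4, 41.8 and 41.4 CPM in UXS1 siRNA libraries, 39.8, 38.0 and 34.8 CPM in MRPL42 siRNA libraries, and 42.2, 37.8 and 12.5 CPM in control siRNA libraries, with control library c lowest. TTR, the thyroid hormone carrier transthyretin, stayed between 0.144 and 0.870 TPM, and HP, the haemoglobin binder haptoglobin, had at most 0.103 TPM.

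APOH and APOC1 led the apolipoproteins. APOH, which binds phospholipids, had 81.8, 78.4 and 86.4 TPM in UXS1 siRNA libraries, 75.1, 74.9 and 74.4 TPM in MRPL42 siRNA libraries, and 102, 95.2 and 107 TPM in control siRNA libraries. Every control library lay above every library of both other groups. APOC1, a small apolipoprotein of triglyceride-rich particles, had 73.2, 72.4 and 61.9 TPM in UXS1 siRNA libraries, 92.0, 39.2 and 70.6 TPM in MRPL42 siRNA libraries, and 31.5, 32.0 and 20.7 TPM in control siRNA libraries. All 6 libraries of the siRNA groups lay above all 3 controls, MRPL42 siRNA library b the least far. APOB, the scaffold of low-density lipoprotein, ranged from 8.77 to 13.9 TPM over the 9 libraries. APOE, the ligand of lipoprotein receptors, lies 4.85 kb from APOC1 and ranged from 0.954 to 2.09 TPM. APOA1, the main protein of high-density lipoprotein, had at most 0.932 TPM.

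Coagulation transcripts were led by fibrinogen and factor V. FGA, the fibrinogen alpha chain, had 52.1, 50.0 and 52.1 TPM in UXS1 siRNA libraries, 42.4, 45.2 and 41.6 TPM in MRPL42 siRNA libraries, and 47.9, 53.0 and 5.04 TPM in control siRNA libraries. FGB, the beta chain, had 41.3, 39.7 and 44.5 TPM in UXS1 siRNA libraries, 36.3, 36.3 and 33.0 TPM in MRPL42 siRNA libraries, and 40.8, 40.2 and 1.81 TPM in control siRNA libraries. FGG, the gamma chain, had 21.5, 20.3 and 25.0 TPM in UXS1 siRNA libraries, 17.3, 15 and 15.5 TPM in MRPL42 siRNA libraries, and 22.5, 25.4 and 0 TPM in control siRNA libraries. For all 3 chains control library c was the lowest of the 9. The genes follow each other on chromosome 4, with gaps of 12.0 kb between FGB and FGA and 13.4 kb between FGA and FGG.

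F5, the cofactor of prothrombin activation, had 45.3, 42.3 and 47.8 TPM in UXS1 siRNA libraries, 37.7, 48.8 and 40.6 TPM in MRPL42 siRNA libraries, and 56.7, 58.0 and 30.1 TPM in control siRNA libraries. F2, prothrombin, had 11.8, 11.3 and 12.3 TPM in UXS1 siRNA libraries, 11.4, 11.3 and 9.63 TPM in MRPL42 siRNA libraries, and 15.8, 14.6 and 1.29 TPM in control siRNA libraries. In both genes control libraries a and b were highest and control library c lowest. F10, factor X, had 1.97, 1.12 and 0.851 TPM in UXS1 siRNA libraries, 1.03, 0.880 and 0.803 TPM in MRPL42 siRNA libraries, and 0.801, 0.676 and 3.06 TPM in control siRNA libraries. Here control library c was the highest of the 9. F7, factor VII, which lies 2.13 kb from F10, was low, between 0.429 and 1.45 TPM, and KNG1, PLG, F11 and F12 stayed under 1 TPM.

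Of the protease inhibitors and precursors other than ITIH2, AGT, the precursor of angiotensin, had 18.3, 18.3 and 17.7 TPM in UXS1 siRNA libraries, 16.3, 16.1 and 15.3 TPM in MRPL42 siRNA libraries, and 18.5, 17.5 and 4.87 TPM in control siRNA libraries. SERPINA3, the acute phase inhibitor antichymotrypsin, had 6.36, 5.89 and 7.49 TPM in UXS1 siRNA libraries, 7.99, 5.23 and 5.09 TPM in MRPL42 siRNA libraries, and 6.12, 7.11 and 0.0748 TPM in control siRNA libraries. Control library c was lowest for both. SERPINA1, the elastase inhibitor alpha-1-antitrypsin, ranged from 1.45 to 4.45 TPM, and SERPINC1, antithrombin, had at most 0.208 TPM.

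Among complement genes C4BPA, a chain of the C4b-binding inhibitor, was highest, with 20.1, 20.0 and 21.4 TPM in UXS1 siRNA libraries, 18.4, 20.4 and 17.3 TPM in MRPL42 siRNA libraries, and 24.1, 26.5 and 11.4 TPM in control siRNA libraries. Both siRNA groups lay between control library c and the other controls. C5, whose product starts the lytic complex, had 16.1, 14.4 and 18.1 TPM in UXS1 siRNA libraries, 14.2, 16.7 and 14.1 TPM in MRPL42 siRNA libraries, and 18.6, 18.1 and 18.8 TPM in control siRNA libraries. The controls were highest, touched only by UXS1 siRNA library c. C3, the central component, had at most 0.354 TPM.

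Summed over the 49 genes, the level was 573, 547 and 580.1 TPM in UXS1 siRNA libraries, 535, 509 and 505 TPM in MRPL42 siRNA libraries, and 615, 613 and 285 TPM in control siRNA libraries. Control library c was the lowest, and control libraries a and b the highest. UXS1 siRNA minus control siRNA was 62.4 TPM (exact two-sided permutation test, p = 1; 3 against 3 cannot go below 0.1), and -47.2 TPM without control library c (exact p = 0.2, the smallest that 3 against 2 allows). MRPL42 siRNA minus control siRNA was 12.0 TPM (exact permutation p = 1), and -97.6 TPM without control library c (exact p = 0.2). With ITIH2 left out, the sum was 469, 452 and 475 TPM in UXS1 siRNA libraries, and 447, 408 and 413 TPM in MRPL42 siRNA libraries. Control siRNA libraries then had 468, 463 and 266 TPM. In this sum the UXS1 siRNA libraries overlapped control libraries a and b, and the MRPL42 siRNA libraries stayed below them. In these bulk samples, fewer cells of a type and less RNA per cell cannot be told apart.

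**Figure D2:**
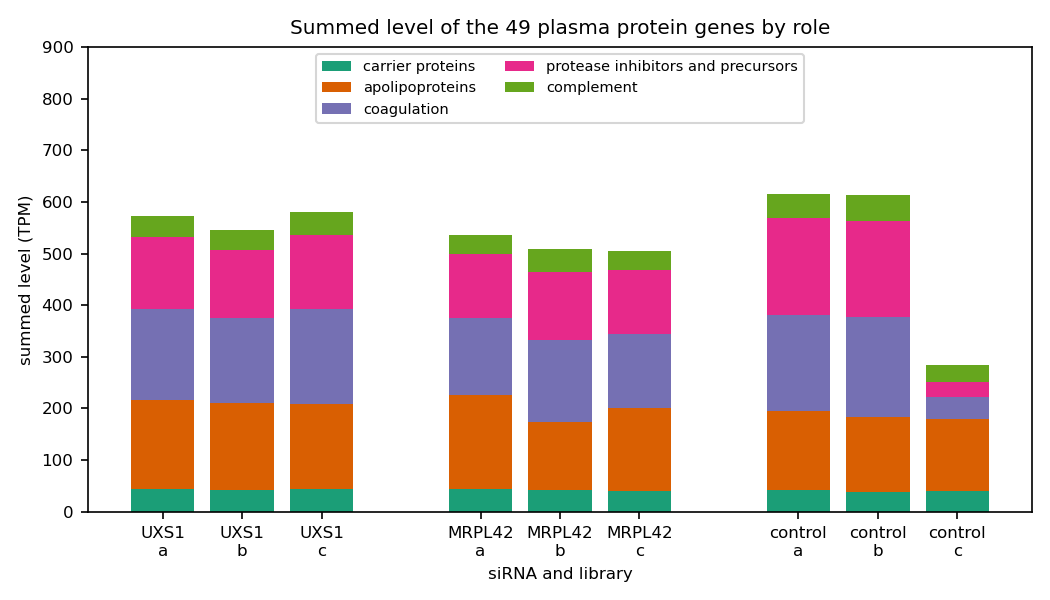
Summed level of the 49 genes in each library, in TPM, stacked by role, with UXS1 siRNA, MRPL42 siRNA and control siRNA libraries from left to right. Control library c reaches 285 TPM, and the other 8 libraries lie between 505 and 615 TPM.

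The label of the cells was checked against markers. Hepatocyte markers were present at modest levels, as ALB and the values above show. Markers of intestinal epithelium were uneven. The 3 highest were far above ALB: KRT20, an intestinal keratin, ranged from 1059.6 to 1468 TPM, LGALS4, an intestinal lectin, from 375 to 593 TPM, and CDH17, an intestinal cadherin, from 87.4 to 435 TPM. Of 12 intestinal markers, 6 reached 1 TPM in all 9 libraries; CDX2, TFF3 and ALPI had at most 3.94, 3.96 and 3.77 TPM, GUCY2C at most 0.0632 TPM, and CDX1, FABP2 and SI had no count in any library. Markers of fibroblasts, endothelium and leukocytes reached 1 TPM in all 9 libraries for 4 of 18 genes.

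Control library c differed from control libraries a and b most in coagulation and protease inhibitor genes. There is 1 such library, so this difference has no replicate check and no test. Of the 30 tested genes, 6 were over 4-fold lower in it on the CPM scale, beside 1.27% of all genes tested, and 14 were over 2-fold lower, beside 4.35%. F10 alone was over 2-fold higher, beside 3.48% of all genes. In 22 genes control library c lay below all other 8 libraries, beside 31.8% of all genes, and in 4 above them, beside 31.6%. The median log2 CPM difference from control libraries a and b was -0.89 over the 30 genes (-0.90 with FGG at its bound), and 0.00 over all genes tested.

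By role, all 6 tested protease inhibitor and precursor genes were over 2-fold lower in control library c, and 4 of 8 coagulation genes were over 4-fold lower. None of the 5 tested apolipoprotein genes was over 2-fold lower. FGG had 0 counts there, against 326 and 349 in control libraries a and b; with a floor of 3 counts per library it was at least 112-fold lower. SERPINA3 had 1 count, against 80 and 88, a ratio of 0.0119 (95% exact interval 0.0003 to 0.0673, for counting error only). The log2 CPM difference was -4.32 for FGB, -3.36 for F2, -3.23 for FGA, -2.87 for ITIH2 and -1.79 for AGT. It was 1.90 for F10, 0.19 for APOH and 0.11 for C5. In summed TPM, control library c stood at 0.157 times control libraries a and b for protease inhibitors and precursors, 0.225 times for coagulation genes and 0.942 times for apolipoproteins.

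**Figure D3:**
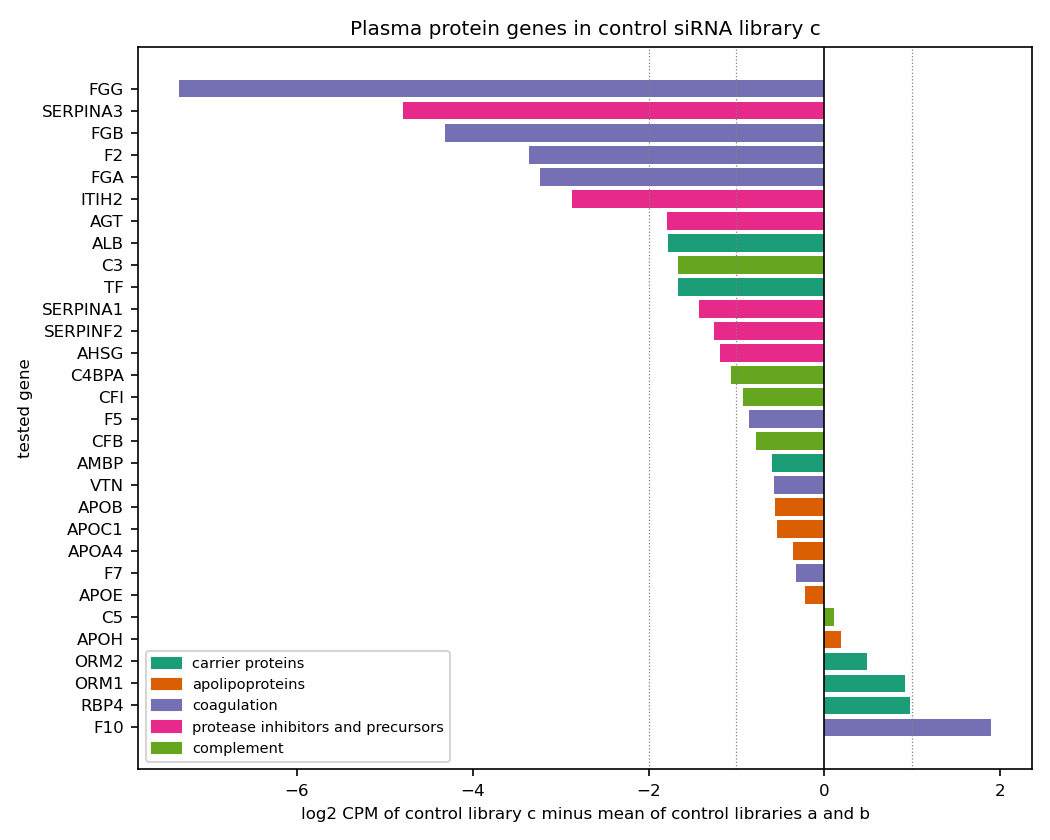
Difference in log2 CPM between control library c and the mean of control libraries a and b for the 30 tested genes, coloured by role, with dotted lines at 4-fold and 2-fold lower and 2-fold higher. The bar of FGG, which had 0 counts in control library c, depends on the prior count of 2; F10 is the only bar past 2-fold higher.

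Other genes also moved with control library c, and their part in the plasma protein values was not tested. Of 32 tested other plasma protein genes, 13 were over 2-fold lower there, 7 of them over 4-fold, and 5 were over 2-fold higher, with a median log2 CPM difference of -0.33. Their summed level was 2569 TPM in control library c, against 1909 to 2297 TPM in the other 8. Of 21 tested hepatocyte transcription factors, 3 were over 2-fold lower and 2 over 2-fold higher, with a median of -0.15. HNF4A, a nuclear receptor of hepatocytes, had 38.5 TPM there and 16.6 to 21.0 TPM in the other 8 libraries. CEBPA had 34.1 TPM in control library c, against 96.3 and 83.3 TPM in control libraries a and b, and FOXA1 had 7.10 TPM, against 26.6 and 27.2 TPM. These 3 factors were picked after their values were seen. Of the 8 tested intestinal markers, 5 were over 2-fold higher there and none over 2-fold lower, and summed over the list of 12 they had 2519.8 TPM in control library c, against 1678 to 1882 TPM in the other 8. Summed fibroblast, endothelial and leukocyte markers had 242 TPM, against 62.7 to 80.3 TPM, of which LUM alone had 206 TPM. Of the 5 tested genes of that list, LUM and DCN were higher there, by 2.93 and 0.46 in log2 CPM, and KDR, COL3A1 and PECAM1 were lower, at -3.0, -1.12 and -0.86; PDGFRA and CDH5 had no count in any library. Of 10 tested nuclear-retained and histone RNAs, 7 were over 2-fold higher in control library c.

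UXS1 siRNA changed no plasma protein gene past the threshold when all 9 libraries were used. By edgeR's quasi-likelihood test with Benjamini-Hochberg adjustment over 12646 genes, 0 of 30 genes had an adjusted p under 0.05, beside 0.0158% of all genes tested, and 6 had an unadjusted p under 0.05, beside 2249 of the 12646 genes. DESeq2 called 1, beside 454 over all genes, and limma-voom with library weights called 3, beside 1313 over all genes. Without control library c, 1 gene of 30, ITIH2, was called and was lower, beside 1.56% of all genes (0.490% higher and 1.07% lower). The median log2 fold change over the 30 genes was 0.38, and 0.07 without control library c, beside 0.00 over all genes tested in both fits. In CPM, all 3 UXS1 siRNA libraries were above all 3 controls for 7 genes, beside 15.3% of all genes, and below them for 2, beside 10.9%. Of these 7, FGA, FGB, AGT and SERPINF2 overlapped the controls in TPM. Against control libraries a and b alone they were above for 10 genes, beside 22.2% of all genes, and below for 7, beside 18.5%.

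MRPL42 siRNA gave the same count. None of the 30 genes passed in edgeR with all 9 libraries, beside 0% of all genes tested. Of the 30, 5 had an unadjusted p under 0.05, beside 2560 of the 12646 genes. DESeq2 called 2, beside 678 over all genes, and limma-voom with library weights called 5, beside 1897 over all genes. Without control library c, 1 gene, again ITIH2, was called and was lower, beside 1.34% of all genes (0.554% higher and 0.791% lower). The median log2 fold change was 0.18, and -0.07 without control library c, beside -0.01 and 0.00 over all genes tested. On the same CPM scale, the 3 MRPL42 siRNA libraries were above all controls for 4 genes, beside 11.0% of all genes, and below them for 3, beside 10.5%; of the 4, APOE and SERPINF2 overlapped the controls in TPM. Against control libraries a and b alone these numbers were 7, beside 16.4% of all genes, and 10, beside 17.5%. Both siRNA groups were set against the same control libraries.

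ITIH2 fell in both groups once control library c was left out. It had 152, 144 and 151 CPM in UXS1 siRNA libraries, 140, 140 and 140 CPM in MRPL42 siRNA libraries, and 199, 203 and 27.5 CPM in control siRNA libraries. The UXS1 siRNA log2 fold change was -0.45 ± 0.05 (SE; edgeR, adjusted p = 0.00218) without control library c and 0.05 ± 0.53 (adjusted p = 0.966) with it. For MRPL42 siRNA it was -0.52 ± 0.05 (edgeR, adjusted p = 0.00192) without control library c and -0.03 ± 0.53 (adjusted p = 0.976) with it. The call rests on leaving out that library.

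APOC1 had 20.9, 21.3 and 17.3 CPM in UXS1 siRNA libraries, 28.3, 10.6 and 20.9 CPM in MRPL42 siRNA libraries, and 8.31, 8.42 and 5.73 CPM in control siRNA libraries. Here too all 6 siRNA libraries lay above all 3 controls. The log2 fold change was 1.41 ± 0.31 in both comparisons (edgeR, adjusted p = 0.171 for UXS1 siRNA and 0.135 for MRPL42 siRNA), so neither passed. Without control library c it was 1.24 and 1.25 (edgeR, adjusted p = 0.0935 and 0.0898). For UXS1 siRNA and MRPL42 siRNA, DESeq2 called both, with adjusted p = 0.00164 and 0.00109, and so did limma-voom with library weights (0.00826 and 0.00711) and edgeR without MRPL42 siRNA library b (0.0198 and 0.00459). EdgeR on only the 6 libraries compared called it for UXS1 siRNA (adjusted p = 0.0207). The APOC1 transcript has 621 bases, and short transcripts moved with these groups: the mean relative log2 level of 719 other tested genes under 1000 bases was 0.15, 0.22 and 0.03 in UXS1 siRNA libraries, 0.38, -0.15 and 0.22 in MRPL42 siRNA libraries, and -0.21, -0.27 and -0.38 in control siRNA libraries. With a correction for transcript length the APOC1 log2 fold change was 0.89 for UXS1 siRNA and 0.81 for MRPL42 siRNA (edgeR, adjusted p = 0.152 and 0.173).

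F7 and APOH lay below all controls in both groups. F7 had 0.859, 0.671 and 0.906 CPM in UXS1 siRNA libraries, 0.840, 0.582 and 0.845 CPM in MRPL42 siRNA libraries, and 1.91, 1.36 and 1.27 CPM in control siRNA libraries. Its log2 fold change was -0.91 ± 0.27 for UXS1 siRNA and -0.99 ± 0.27 for MRPL42 siRNA (edgeR, adjusted p = 0.177 and 0.138), on 9 to 37 counts per library. APOH had 44.3, 43.6 and 45.8 CPM in UXS1 siRNA libraries, 43.7, 38.4 and 41.7 CPM in MRPL42 siRNA libraries, and 51.1, 47.5 and 56.2 CPM in control siRNA libraries. Its log2 fold change was -0.21 ± 0.08 and -0.32 ± 0.08 (edgeR, adjusted p = 0.226 and 0.135). Without control library c the log2 fold change for UXS1 siRNA and MRPL42 siRNA was -1.04 and -1.10 for F7 (edgeR, adjusted p = 0.10 and 0.0917), and -0.16 and -0.26 for APOH (adjusted p = 0.275 and 0.108). EdgeR called neither gene in either fit. Limma-voom with library weights called F7 in both comparisons (adjusted p = 0.0288 and 0.0290), and for MRPL42 siRNA it called APOH (adjusted p = 0.0265), as DESeq2 did (adjusted p = 0.0266). F7 was named after its values were seen.

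**Figure D4:**
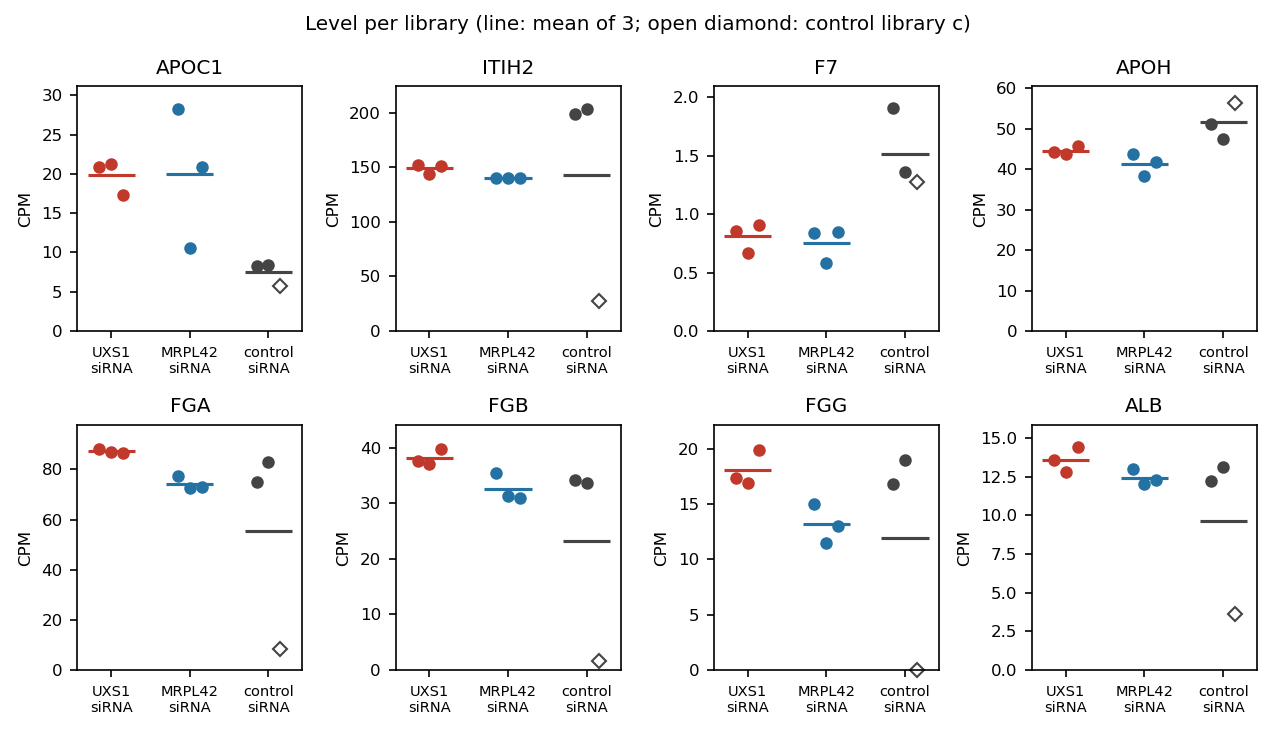
CPM per library of 8 genes, with UXS1 siRNA, MRPL42 siRNA and control siRNA from left to right; lines are means of 3 libraries and the open diamond is control library c. Control library c sits far below the others for ITIH2, FGA, FGB, FGG and ALB, and within or near the controls for APOC1, F7 and APOH.

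The fibrinogen genes and albumin showed how far control library c sets the fold change. FGA had a UXS1 siRNA log2 fold change of 0.66 ± 0.58, and 0.14 ± 0.06 without control library c (edgeR, adjusted p = 0.573 and 0.267). FGB had 0.72 ± 0.67, and 0.15 ± 0.08 without it, and FGG had 0.60 ± 0.82, and 0.00 ± 0.12 without it. For MRPL42 siRNA the log2 fold change of FGG was 0.15 ± 0.83, and -0.44 ± 0.12 without control library c (edgeR, adjusted p = 0.930 and 0.106). ALB had 0.49 ± 0.36 for UXS1 siRNA and 0.36 ± 0.36 for MRPL42 siRNA, and 0.09 ± 0.09 and -0.03 ± 0.09 without control library c. None of these passed the threshold in either fit.

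The other genes named with their levels are given with both fits, and leaving out control library c moved most of them down and F10, RBP4 and, slightly, C5 up. For UXS1 siRNA the log2 fold change with and without control library c was 0.43 and 0.04 for TF, 0.52 and 0.12 for AGT, 0.68 and 0.09 for SERPINA3, 0.27 and -0.26 for F2, 0.01 and -0.24 for F5, 0.10 and -0.19 for C4BPA, -0.12 and 0.93 for F10, -0.17 and 0.22 for RBP4, and -0.10 and -0.08 for C5. For MRPL42 siRNA it was 0.28 and -0.09 for TF, 0.36 and -0.03 for AGT, 0.61 and 0.03 for SERPINA3, 0.17 and -0.36 for F2, -0.07 and -0.30 for F5, -0.02 and -0.29 for C4BPA, -0.64 and 0.43 for F10, -0.03 and 0.37 for RBP4, and -0.19 and -0.15 for C5. No edgeR call was made for any of them; limma-voom with library weights called F5 for MRPL42 siRNA (adjusted p = 0.0272). ORM1 and ORM2, acute phase glycoproteins that are near-identical copies 3.39 kb apart, may share reads, so their values are uncertain.

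**Figure D5:**
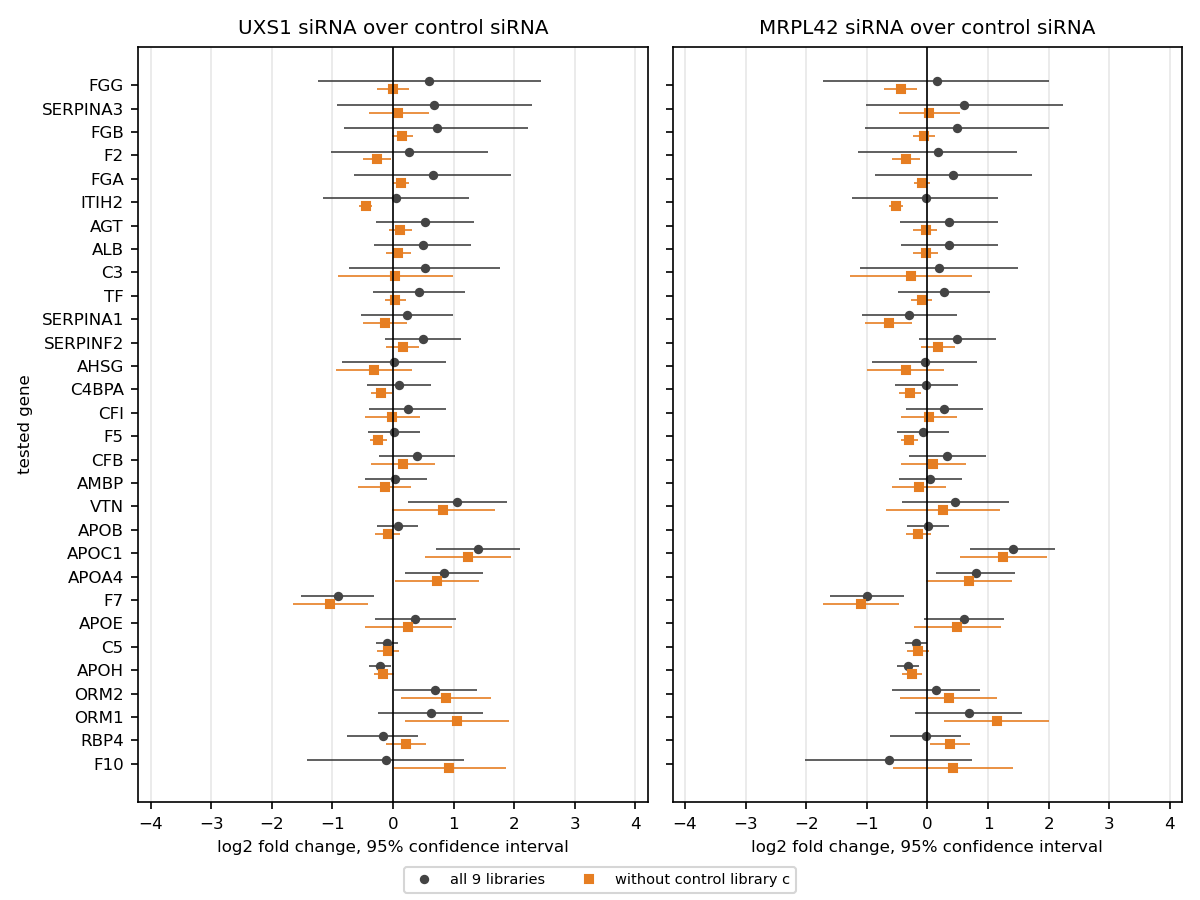
Log2 fold change over control siRNA of the 30 tested genes, for UXS1 siRNA (left) and MRPL42 siRNA (right), with 95% confidence intervals, using all 9 libraries (dark circles) or leaving out control library c (orange squares). Intervals of FGG, FGB, F2, FGA and ITIH2 narrow without control library c, and ITIH2 then lies below 0 in both panels.

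Between the siRNA groups, UXS1 siRNA over MRPL42 siRNA, 0 of 30 genes passed in edgeR, beside 0% of all genes tested, and 0 had an unadjusted p under 0.05, beside 218 of the 12646 genes. Without control library c, 0 passed and 4 had an unadjusted p under 0.05, all higher in UXS1 siRNA, beside 691 of the 12646 genes. The median log2 fold change was 0.09, beside 0.00 over all genes. In CPM, the 3 UXS1 siRNA libraries lay above the 3 MRPL42 siRNA libraries for 7 genes (TF, C4BPA, ITIH2, FGG, FGA, FGB and SERPINA1), beside 5.79% of all genes, and below them for APOE alone, beside 4.28%. In TPM the groups overlapped for ITIH2, C4BPA and APOE. FGA had 88.2, 87.0 and 86.4 CPM in UXS1 siRNA libraries, against 77.2, 72.5 and 73.0 CPM in MRPL42 siRNA libraries. The log2 fold change was above 0 for 23 of the 30 genes (76.7%), beside 48.6% of all genes. By role it was above 0 for 3 of 6 carrier protein, 3 of 5 apolipoprotein, 8 of 8 coagulation, 5 of 6 protease inhibitor and precursor, and 4 of 5 complement genes. The difference in summed TPM was 50.4 (exact permutation p = 0.1, the smallest that 3 against 3 allows).

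The other genes of these pathways were counted from lists. Of 75 other plasma protein genes 32 were tested, and of 24 hepatocyte transcription factors 21. With all 9 libraries edgeR called none in any list of the comparisons with control; among other plasma proteins 9 of 32 had an unadjusted p under 0.05 for UXS1 siRNA and 8 of 32 for MRPL42 siRNA, beside the 2249 and 2560 of 12646 genes given above. Without control library c, edgeR called 3 of the 32 other plasma protein genes for each siRNA, 1 higher and 2 lower for UXS1 siRNA and 2 higher and 1 lower for MRPL42 siRNA, beside 1.56% and 1.34% of all genes. Among them, by edgeR, APOL1, a trypanosome lytic factor, was higher with UXS1 siRNA (log2 fold change 0.32, adjusted p = 0.0331). IGFBP1, a binder of insulin-like growth factors, was lower with it (-0.91, edgeR, adjusted p = 0.00169). With MRPL42 siRNA, in the same edgeR fit, APOL1 was higher (0.30, adjusted p = 0.0490) and IGFBP1 lower (-0.93, adjusted p = 0.00192). In TPM, APOL1 overlapped there, with 117, 145 and 135 in MRPL42 siRNA libraries against 119 and 117 in control libraries a and b. Among 19 acute phase signalling genes only NFKBIZ, a nuclear regulator of NF-kB, was called, higher with UXS1 siRNA (0.36, adjusted p = 0.0339). None of the 21 transcription factors and none of the 15 tested genes of apolipoprotein B assembly and secretion was called for either siRNA in either fit, by edgeR; with all 9 libraries 6 and 4 of them had an unadjusted p under 0.05 for UXS1 siRNA, and 3 and 6 for MRPL42 siRNA, to be read beside the same numbers over all genes.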

How the data were processed

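For each gene the authors deposited estimated counts, with decimals in part of the values. Bowtie2, HISAT2, fastp and edgeR are named in the submitters' processing notes, with the build hg38; of versions, roles and strandedness nothing is said there. Reads of overlapping genes may therefore be shared. The table's other 9 columns of values per library were left unused. Column names gave the groups; the UXS1 columns carry the name with 2 letters exchanged.

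Estimated counts were rounded (the design had assumed raw counts). After filterByExpr and TMM scaling, all 9 libraries were fitted together with edgeR 4.0.16 (quasi-likelihood, two-sided; limma 3.58.1, DESeq2 1.42.0, R 4.3.3), with Benjamini-Hochberg adjustment over 12646 genes and a threshold of 0.05. Log2 CPM used a prior count of 2. TPM were computed here as counts per GENCODE 29 transcript length, without a correction for effective length. Coordinates are also from GENCODE 29. The test was also run on simulated counts, drawn for each gene with the same spread in every library. A single deviating library such as control library c was not simulated, so that run does not cover this case. Depth was 15265959 to 22400560 counts per library, and intervals of counts cover counting error only.

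The genes and lists were chosen with earlier results of these data known. Genes named with values were the 10 of highest median TPM, the highest of each role, those past the threshold with all 9 libraries or without control library c, the 8 that differed most in control library c, both targets, and called genes of other lists. ALB is named as a marker, and TF and F7 were added after their values were seen. Fold changes are given for every gene of the rule and for these 3. The 3 highest genes of each other list, also in the rule, are given only for the intestinal markers. Some called genes of the other lists are not reported here. Alternatives are listed in the closing section.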

Additional observations from a re-analysis of the deposited data

How the results depend on the processing

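No paired analysis was possible because the columns carry letters and no repeat numbers, so the planned replicate block was not run. Signs of small log2 fold changes were often unstable. With each library left out in turn, the UXS1 siRNA value ran from -0.45 to 0.39 for ITIH2, -0.24 to 0.15 for F5, 0.00 to 1.10 for FGG, -0.19 to 0.30 for C4BPA, -0.26 to 0.69 for F2, -0.51 to 0.93 for F10 and -0.37 to 0.22 for RBP4. The MRPL42 siRNA value ran from -0.52 to 0.30 for ITIH2, -0.09 to 0.84 for FGA, -0.30 to 0.07 for F5, -0.09 to 0.58 for TF, -0.06 to 0.89 for FGB, -0.44 to 0.64 for FGG, -0.29 to 0.19 for C4BPA, -0.03 to 0.64 for AGT, -0.36 to 0.58 for F2, -0.99 to 0.43 for F10, -0.03 to 0.65 for ALB and -0.23 to 0.37 for RBP4. Between the siRNA groups it ran from -0.30 to 0.32 for APOC1, -0.07 to 0.35 for SERPINA3 and -0.07 to 0.20 for F7. Library weights turned UXS1 siRNA values to -0.34 for ITIH2, -0.20 for F5, -0.17 for C4BPA, -0.13 for F2, 0.96 for F10 and 0.21 for RBP4, and MRPL42 siRNA values to 0.00 for FGA, -0.07 for TF, -0.16 for FGG, -0.29 for F2, 0.34 for F10 and 0.35 for RBP4. RLE scaling and DESeq2 gave 0.00 for F5 (UXS1 siRNA), and length correction 0.02 for F5 (MRPL42 siRNA). On log2(TPM + 1), run on the TPM computed here and not on deposited values as planned, F5 had -0.04 (UXS1 siRNA) and ITIH2 0.30 (MRPL42 siRNA). APOC1 between the siRNA groups had 0.08 with length correction and 0.12 on log2(TPM + 1). The cause was not tested.

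Calls among the 30 genes for UXS1 siRNA numbered 0 in the fit to all libraries, 1 with DESeq2, 1 with only the 6 libraries compared, 3 with library weights, and 0 to 1 with a library left out. For MRPL42 siRNA they numbered 0, 2 with DESeq2, 5 with library weights, and 0 to 1 with a library left out. Over all genes, UXS1 siRNA calls numbered 2, and 454 with DESeq2, 282 with 6 libraries, 8 with length correction, 1313 with library weights, 5 on log2(TPM + 1), and 0 to 353 with a library left out (197 without control library c, 353 without MRPL42 siRNA library b). MRPL42 siRNA calls numbered 0, and 678 with DESeq2, 2 with length correction, 1897 with library weights, 8 on log2(TPM + 1), and 0 to 812 with a library left out (170 without control library c, 812 without MRPL42 siRNA library b). The summed TPM difference for MRPL42 siRNA was -29.0 when transcripts under 1000 bases were left out. With a library left out it ran from -47.2 to 117.7 for UXS1 siRNA and from -97.6 to 67.3 for MRPL42 siRNA, lowest without control library c. The number of genes over 2-fold lower in control library c was 14, and 12 on log2(TPM + 1), an alternative added after the data were seen.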
